A study of Mus musculus with 34 samples.

Results

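The comparison described here set 11 *Pkd2*-KO kidneys from PBS-treated mice against 12 kidneys from untreated, non-transgenic (UNT) mice, all taken on postnatal day 28 (P28). These 23 libraries were chosen by their labels from the 34 RNA-sequencing libraries of the series, and the remaining 11 came from *Pkd2*-KO mice given the anti-miR-17 oligonucleotide RGLS4326, which entered the statistical fit but were not compared. All mice were on the C57BL6 background. The *Pkd2*-KO mice, whose genotype the labels write as "Pdk2KO", carried a *Pkd2* gene with both alleles floxed and Cre recombinase under the control of the *Pkhd1* promoter, which acts in renal tubules and collecting ducts, so cells outside that expression domain kept an intact gene. A figure legend of the study gives a smaller PBS group for the RNA sequencing than the labels do, and the labels were followed. The PBS mice received PBS under the skin on 4 days, P10, P11, P12 and P19. The UNT mice carried no transgene and received no injection, so the genotype and the injections cannot be told apart.

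*Pkd2* encodes polycystin-2, a cation channel of the primary cilium and endoplasmic reticulum. Its loss in tubule cells leads to autosomal dominant polycystic kidney disease, in which tubules widen into fluid-filled cysts and functioning parenchyma is replaced by cysts, inflammation and fibrosis. The healthy mouse kidney is dominated by proximal tubules, which reclaim filtered solutes, burn fatty acids rather than glucose and make glucose themselves, and by the distal segments that adjust salt, acid and water. Whole kidneys were sequenced, so fewer cells of a type and less RNA per cell cannot be told apart anywhere below.

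**Figure D1:**
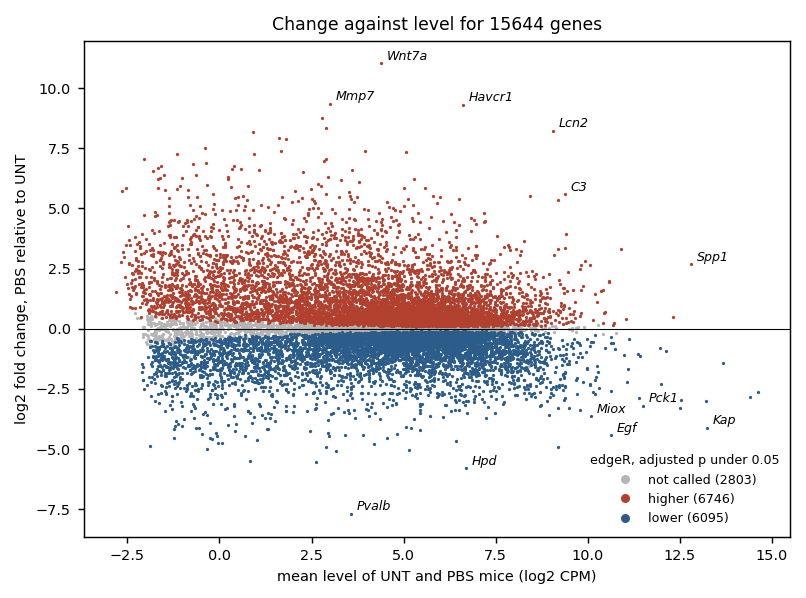
Change against level for the 15644 genes tested. The x axis is the mean level of UNT and PBS mice (log2 CPM) and the y axis the log2 fold change of PBS relative to UNT. Each point is 1 gene, coloured by its edgeR call at an adjusted p under 0.05, and genes far above 0 lie mostly at low levels, while genes far below 0 include some at high levels such as *Egf* and *Pck1*.

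The difference between the groups reached most of the transcriptome. Levels are given as CPM, the count scaled to 1000000 reads in genes with TMM factors, from the lowest to the highest mouse with the median, and changes as log2 fold changes of PBS relative to UNT, so a value after a gene symbol with no unit is a log2 fold change. Of 15644 genes fitted with edgeR (quasi-likelihood F test), 82.1% were called at an adjusted p under 0.05, so that 43.1% of the genes tested were called higher and 39% lower in PBS mice, and 32.3% were called with a log2 fold change beyond 1 in either direction (18.2% higher and 14% lower). These shares are the background against which each gene group below has to be read. For 42.5% of the genes tested the 11 PBS mice did not overlap the 12 UNT mice, with PBS above for 22.7% and below for 19.8%. The increases reached further than the decreases. A log2 fold change above 4 was called for 251 genes and one below -4 for 43 genes, and 41 genes lay above 6 while only *Pvalb* lay below -6. At the other end, 4703 genes (30.1%) had a 95% interval of their log2 fold change inside the range from -0.5 to 0.5. *Pkd2* itself ranged from 219.6 to 338 CPM (median 274) in UNT mice and from 98 to 215 CPM (median 165) in PBS mice, without overlap (log2 fold change -0.78 ± 0.09 SE, edgeR adjusted p = 1.4e-09). With the proportion of multiply aligned reads as a covariate its log2 fold change was -0.39 and it was not called, and gene-level counts include the exons that Cre leaves in place. Of the called genes, 12412 had the same sign in each of the 3 library sets, the series of libraries numbered together, each of which held mice of both groups.

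Total reads in genes ranged from 24226637 to 48891459 in PBS mice and from 20823992 to 54981992 in UNT mice. The make-up of the libraries moved with the groups. The 10 largest rows held 4.81% to 6.99% of the reads in genes of a PBS library and 13.6% to 16.8% of those of a UNT library. As shares of all counted rows, in genes and outside them, reads assigned to no gene made up 5.18% to 9.0% against 9.84% to 11.3%, and multiply aligned reads 14.8% to 19.4% against 22.8% to 25.7%. Their part in the differences below was not tested beyond fits with these shares as covariates. Scaling also mattered for direction. With library size alone in place of TMM factors the median log2 fold change of all genes was 0.33 rather than 0.04, a shift of 0.30, and 68.6% rather than 52.5% of the called genes were higher in PBS mice, so changes within about 0.3 of 0 depend on the scaling.

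**Figure D2:**
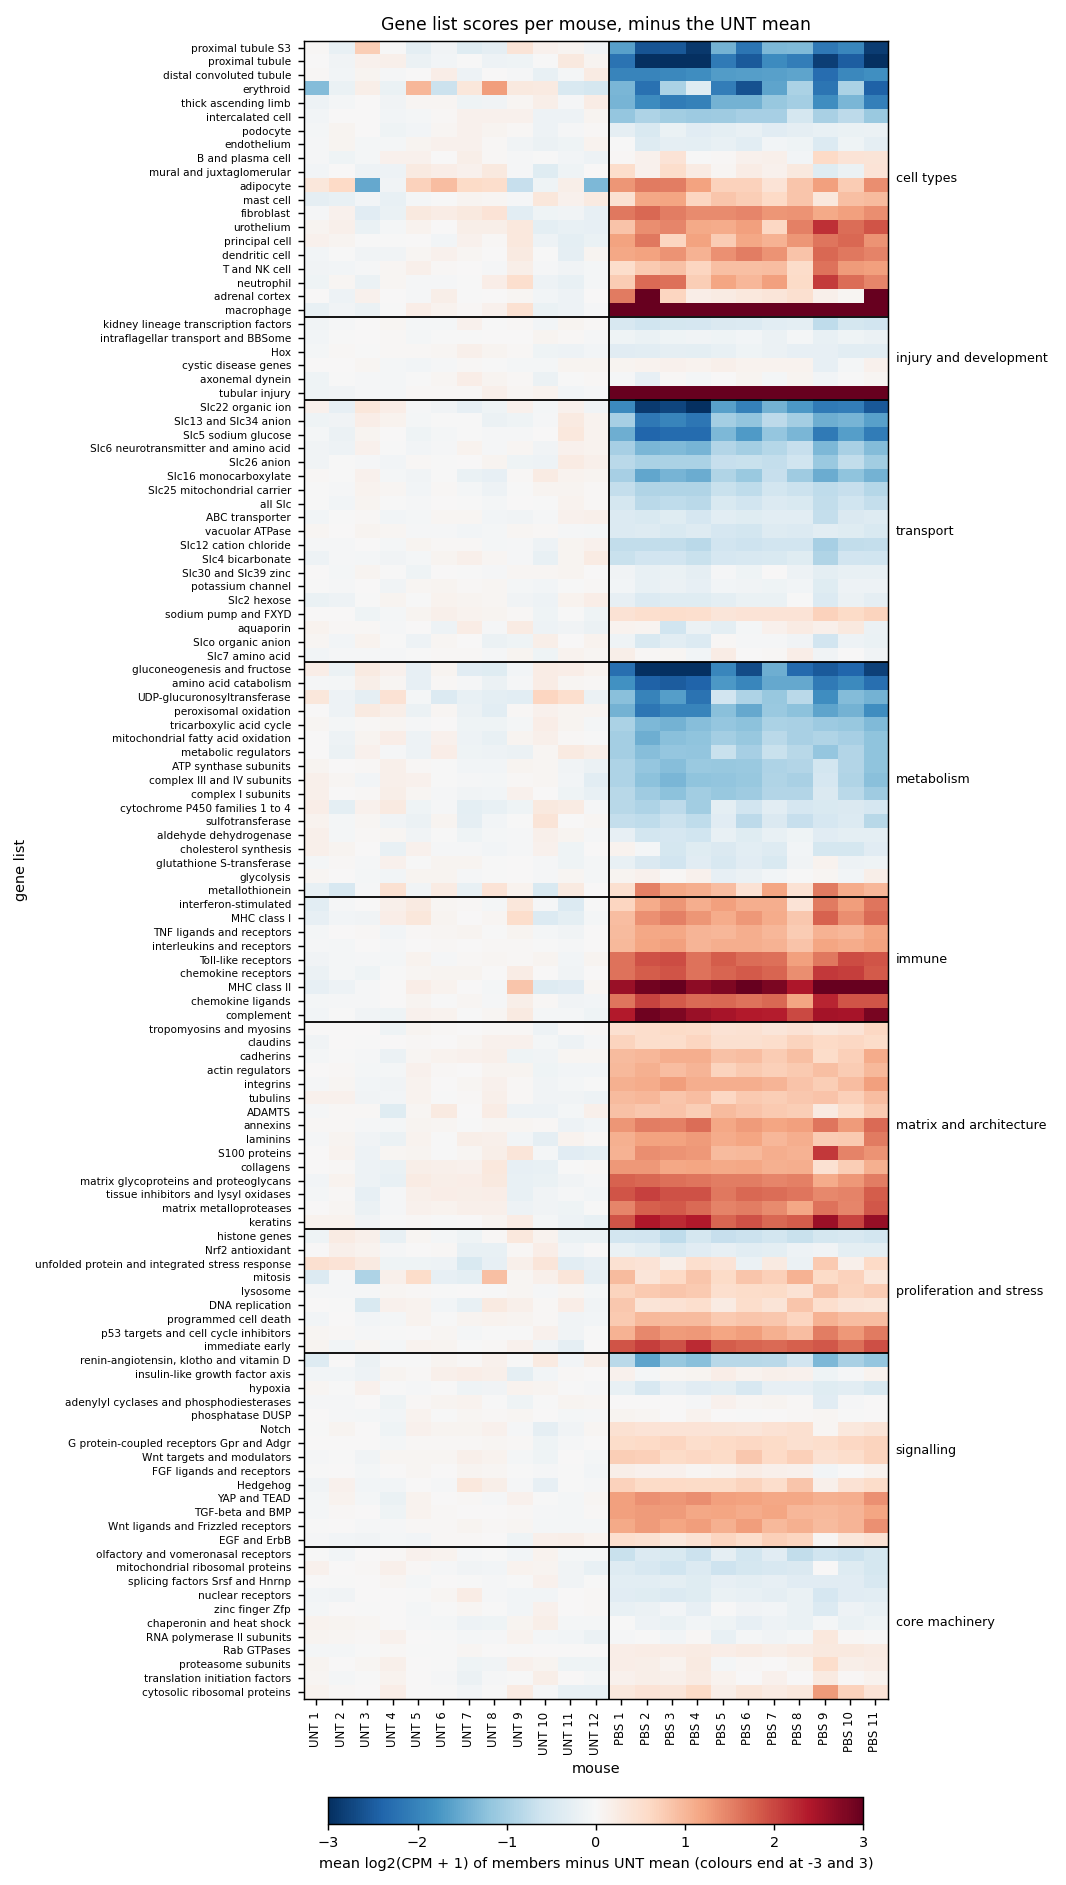
Scores of 120 gene lists in each of the 23 mice. Each row is a list, sorted by class and then by its median log2 fold change, each column a mouse, and the colour the mean log2(CPM + 1) of the list's members minus the mean of the 12 UNT mice. The lists of the immune class and of the matrix and architecture class are red (higher) in every PBS mouse, and 13 of 17 metabolism lists lie below every UNT mouse.

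Gene lists were used to describe functional classes, and a list's score in a mouse was the mean log2(CPM + 1) of its tested members. Of 120 lists with a tested member, 67 had a median log2 fold change above 0 and 53 below 0, and for 81 of them the scores of PBS and UNT mice did not overlap (43 with PBS above, 38 below). The classes separated by direction. All 9 immune lists and all 15 lists of matrix, adhesion and cytoskeleton were higher in PBS mice without overlap of the scores. Of 17 metabolic lists 15 had a median below 0, 13 of them without overlap, and of 19 transport lists 14 had a median below 0, 12 of them without overlap. Signalling (10 of 14 medians above 0) and proliferation and stress (7 of 9) leaned upward, while the basic cell machinery was mixed (5 of 11 above 0). The median kept its sign in all 3 library sets for 107 lists. For 7 lists the median and the mean score differed in sign, with overlapping scores for each (B and plasma cells, axonemal dyneins, Slc2 and Slco transporters, aquaporins, the insulin-like growth factor axis and RNA polymerase II).

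Markers of most nephron segments were lower, and those of principal cells higher. All 15 proximal tubule markers were lower in PBS mice, each without overlap and each by more than 1 on the log2 scale, with a median of -2.59. *Slc34a1*, the phosphate cotransporter of the proximal brush border, ranged from 3988 to 5852 CPM (median 4677) in UNT mice and from 251 to 1162 CPM (median 638) in PBS mice, and even the highest PBS mouse lay far below the lowest UNT mouse (log2 fold change -2.87 ± 0.20 SE, edgeR adjusted p = 1.17e-15). *Miox*, the first enzyme of inositol breakdown, ranged from 1532 to 2273 CPM (median 2023) in UNT mice and from 37.2 to 273 CPM (median 169.5) in PBS mice (log2 fold change -3.64 ± 0.26 SE, edgeR adjusted p = 5.28e-15). *Lrp2*, which encodes the endocytic receptor megalin, ranged from 2089 to 3286 CPM (median 2783) in UNT mice and from 219 to 730.0 CPM (median 428) in PBS mice (log2 fold change -2.59 ± 0.19 SE, edgeR adjusted p = 6.16e-15). Genes of uptake, metabolism and endocytosis were all among them, and the transporter *Slc2a2* changed least (log2 fold change -1.54). Markers of the last, straight part of the proximal tubule (S3) had a median of -3.06, with 6 of 7 lower. The exception was *Cyp7b1*, a hydroxylase of oxysterols, which was higher (log2 fold change 1.94 ± 0.09 SE, edgeR adjusted p = 5.03e-21).

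Promoters of the proximal tubule and glucose-producing genes were read because these genes fell together, and GTTAAT, a short homeodomain half-site, was searched for in them. RefSeq promoters (GRCm38.p6, 250 bases before to 50 after the start) were matched by symbol for 11545 of the 15644 genes. GTTAAT, searched on both strands, lay in 4.69% of these promoters, in 8.42% of the 1568 belonging to genes called lower by more than 1, in 4.56% of the 2017 of genes called higher by more than 1 and in 3.68% of the 2041 of genes not called. Among all 27025 RefSeq promoters, including those of genes not tested, it lay in 7.20%. Among the lists for which it was tallied it lay in 4 of the 12 matched proximal tubule promoters, 3 of 7 of gluconeogenesis and fructose, 3 of 20 of Slc22 and 1 of 24 of amino acid catabolism, all lists that were lower. It also lay in promoters of lists that were higher, 5 of 11 for complement, 3 of 8 for tubular injury, 2 of 19 for chemokine ligands, 1 of 20 for mitosis and 0 of 9 for keratins, and in 3 of 61 for cytosolic ribosomal proteins. Windows of 30 bases around a match, from promoters that hold one, are printed 5′ to 3′ on the gene's strand, with the match in capitals. Capitals that read ATTAAC are the same motif on the other strand.
Slc34a1, chr13:55399575-55399604, + strand: cttgggggtaaaGTTAATttaatggggaaa
Slc22a6, chr19:8617928-8617957, + strand: aatactcacaggGTTAATccttctgacacc
Slc22a8, chr19:8593089-8593118, + strand: cccctgccggatGTTAATcttccaaagaaa
Miox, chr15:89334319-89334348, + strand: ctgtactgatacATTAACttgctgaggtca
Pck1, chr2:173152869-173152898, + strand: ctcccaacattcATTAACaaccacaagttc
G6pc, chr11:101367483-101367512, + strand: cagtgtgcccaaGTTAATaattggctctgc
Khk, chr5:30921487-30921516, + strand: tcacgtgacaccGTTAATctggcgcggggg
These letters describe the windows and do not show binding. CAAAGTC, a half-site of HNF4, was in 4.07% of all matched promoters, 5.74% of those of genes lower by more than 1 and 5.26% of those of genes higher by more than 1. *Hnf4a*, which encodes that factor, fell (log2 fold change -1.49 ± 0.13 SE, edgeR adjusted p = 4.04e-13).

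The thick ascending limb and the distal convoluted tubule, which reabsorb salt downstream of the proximal tubule, were lower as well. *Slc12a1*, the furosemide-sensitive cotransporter, ranged from 1365 to 2884 CPM (median 1759) in UNT mice and from 233 to 635 CPM (median 496) in PBS mice (log2 fold change -2.11 ± 0.15 SE, edgeR adjusted p = 2.74e-15). *Slc12a3*, the thiazide-sensitive cotransporter, ranged from 1021 to 1851 CPM (median 1413) in UNT mice and from 148 to 341 CPM (median 202) in PBS mice (log2 fold change -2.70 ± 0.13 SE, edgeR adjusted p = 1.03e-19). All 9 distal convoluted tubule markers were lower, with a median of -1.76. Among these *Pvalb*, which encodes the calcium-binding protein parvalbumin, had 10175 reads summed over the UNT mice and 45 over the PBS mice, where 5 of 11 mice had any. In the thick ascending limb the list split, with 8 of 10 lower. *Egf*, whose precursor this segment secretes into urine, fell the most of the list, with levels from 2294 to 4992 CPM (median 2831) in UNT mice and from 27.8 to 390.2 CPM (median 128) in PBS mice (log2 fold change -4.43 ± 0.37 SE, edgeR adjusted p = 2.19e-13), whereas *Umod*, uromodulin of the same cells, fell less (log2 fold change -0.79 ± 0.11 SE, edgeR adjusted p = 3.19e-08). *Tmem207* fell (log2 fold change -3.40 ± 0.20 SE, edgeR adjusted p = 1.27e-17) and *Kcnj1*, the potassium channel that recycles potassium in this limb, had a log2 fold change of -0.59.

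Collecting duct markers parted by cell type. All 10 principal cell markers were higher in PBS mice, 8 of them without overlap, with a median of 1.41. *Aqp4*, the water channel of the basolateral membrane, ranged from 47 to 88.2 CPM (median 67.6) in UNT mice and from 124 to 315 CPM (median 211) in PBS mice (log2 fold change 1.61 ± 0.15 SE, edgeR adjusted p = 7.23e-12). *Scnn1b* and *Scnn1g*, subunits of the epithelial sodium channel, had log2 fold changes of 1.10 and 0.86, and *Elf5*, a transcription factor of principal cells, of 1.76. *Aqp2*, the vasopressin-regulated water channel, was higher on average but spread widely, with levels from 161 to 384 CPM (median 238) in UNT mice and from 179.8 to 1192 CPM (median 593) in PBS mice (log2 fold change 1.27 ± 0.29 SE, edgeR adjusted p = 0.000167). Its groups overlapped, and when the proportion of reads assigned to no gene was a covariate its log2 fold change was -0.09. With the proportion of multiply aligned reads as a covariate *Aqp2* (0.05), *Scnn1b* (0.24) and *Scnn1g* (0.02) were not called. Intercalated cells, the acid-base cells of the same duct, gave 8 of 11 markers lower. *Slc4a1*, the chloride-bicarbonate exchanger of acid-secreting cells, ranged from 51.5 to 74.3 CPM (median 60.9) in UNT mice and from 7.59 to 18.1 CPM (median 10) in PBS mice (log2 fold change -2.46 ± 0.13 SE, edgeR adjusted p = 1.9e-18), and *Slc26a4*, pendrin of base-secreting cells, and *Insrr*, an alkali-sensing receptor, fell by 1.92 and 2.67 on the log2 scale. *Dmrt2*, a transcription factor of acid-secreting cells, went the other way (log2 fold change 1.31 ± 0.10 SE, edgeR adjusted p = 1.02e-14), and *Aqp6* was not called (-0.07).

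Cells outside the tubule gave mixed results. Of 10 podocyte markers, 6 were lower, among them *Podxl*, the anti-adhesive sialomucin podocalyxin (log2 fold change -0.95 ± 0.06 SE, edgeR adjusted p = 4.4e-16), and 4 were higher, among them *Synpo*, an actin-associated protein (log2 fold change 0.83). Endothelial markers moved by less than 1 on the log2 scale in every case. Of 13, 8 were lower, such as *Emcn*, a surface sialomucin, and *Tek*, the angiopoietin receptor (-0.90 and -0.85), 4 were higher, and *Plvap*, of fenestrated capillaries, was not called. Fibroblast genes were mostly higher, while the mural and juxtaglomerular list gave 4 of 7 higher and 2 lower with overlapping scores. *Pdgfrb*, the receptor of pericytes and fibroblasts, ranged from 70.4 to 128 CPM (median 91) in UNT mice and from 137 to 253 CPM (median 215) in PBS mice (log2 fold change 1.11 ± 0.10 SE, edgeR adjusted p = 9.1e-13). *Acta2*, smooth muscle actin of contractile cells, ranged from 70.3 to 120.4 CPM (median 89.5) in UNT mice and from 286 to 632 CPM (median 409.9) in PBS mice (log2 fold change 2.16 ± 0.11 SE, edgeR adjusted p = 1.41e-19). Neither gene showed overlap between the groups. *Thy1*, a surface protein of fibroblasts and T cells, rose the most among 11 fibroblast genes (log2 fold change 4.31 ± 0.15 SE, edgeR adjusted p = 4.88e-24), and 10 of the 11 were higher. *Ren1*, renin of the juxtaglomerular cells, fell (log2 fold change -1.95 ± 0.24 SE, edgeR adjusted p = 3.19e-09) although the groups overlapped.

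Markers of tissue next to the kidney were not even across mice. *Star*, the cholesterol carrier of steroid-making adrenal cortex, was at 301.7 CPM in PBS mouse 2 and 450.3 CPM in PBS mouse 11, at 15.7 CPM in PBS mouse 1 and between 2.31 and 5.86 CPM in the other PBS mice, against 2.34 to 3.93 CPM in UNT mice. Only 2 of 6 adrenal markers passed the low-count filter. Without PBS mice 2 and 11, an alternative chosen after seeing the data, 12574 genes were called. All 6 urothelial markers were higher in PBS mice (median 1.26), and *Upk3b*, of the urothelial plaque family, ranged from 8.24 to 13.3 CPM (median 10.6) in UNT mice and from 39.3 to 102 CPM (median 55.2) in PBS mice without overlap (log2 fold change 2.49 ± 0.17 SE, edgeR adjusted p = 5.54e-16). Among 5 adipocyte markers 4 were higher, with overlap for each, and *Adipoq* reversed in library set 2 (log2 fold change -0.21 against 0.82 in all mice), and was 0.47 and not called with the proportion of multiply aligned reads as a covariate.

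**Figure D3:**
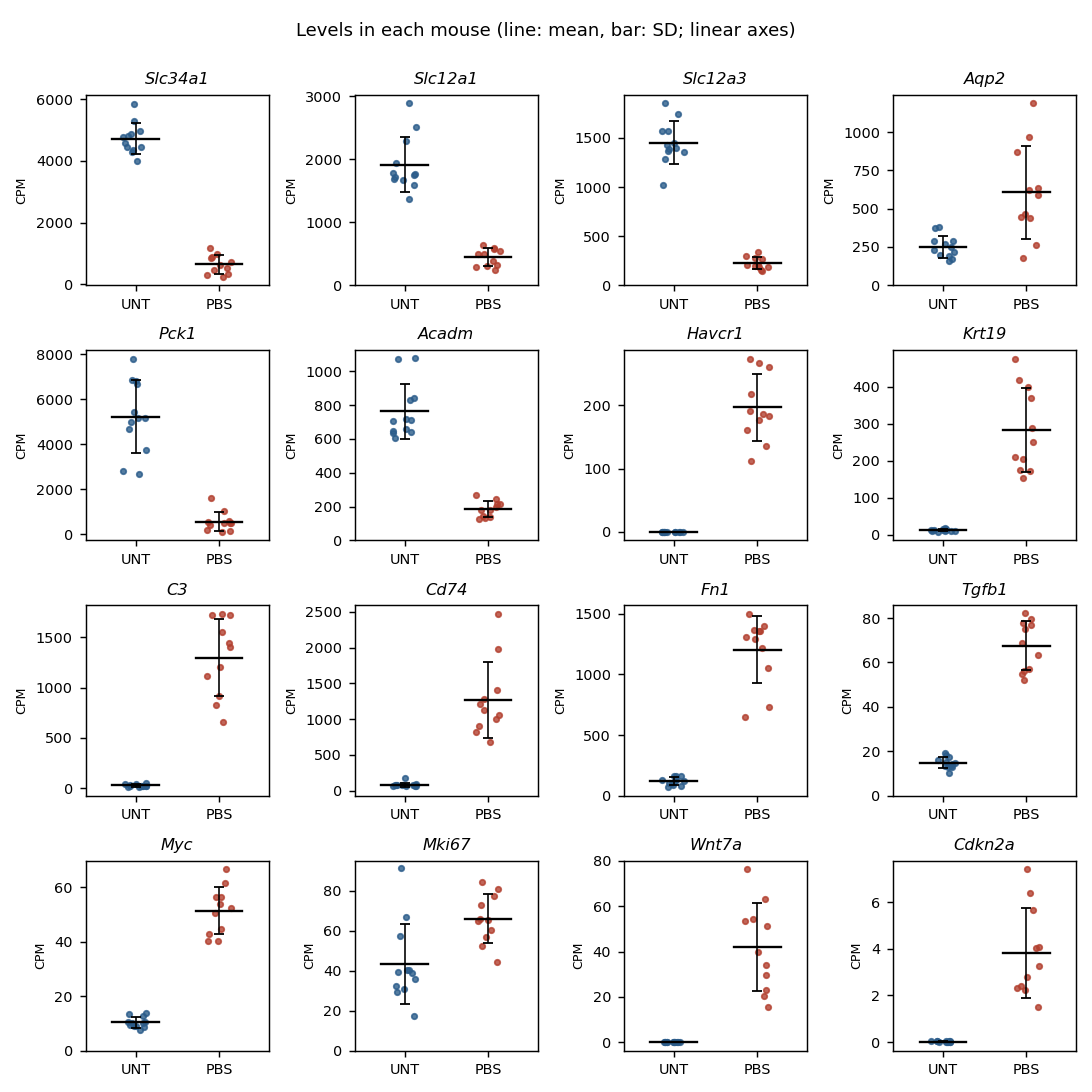
Levels of 16 genes in each mouse. The y axes are CPM on linear scales, points are mice, the horizontal line is the mean and the bar the SD of 12 UNT or 11 PBS mice. Groups are apart for every gene shown except *Aqp2* and *Mki67*, and the spread among PBS mice is wide for *Cd74*, *C3* and *Aqp2*.

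Solute carriers, the largest transporter superfamily, were lower as a whole. Of 310 tested members 197 were lower, 80 higher and 33 not called, with a median of -0.63, against 39% lower and 43.1% higher among all genes. They held 3.90% of the reads in genes of UNT mice on average and 1.93% in PBS mice. The Slc22 family of organic cation and anion transporters had 21 of 23 lower and a median of -2.32. *Slc22a8*, which takes up organic anions from blood, ranged from 608 to 884 CPM (median 761) in UNT mice and from 19.3 to 189 CPM (median 84.7) in PBS mice (log2 fold change -3.16 ± 0.25 SE, edgeR adjusted p = 7.72e-14), *Slc22a6*, its partner in that uptake, fell by 2.68 on the log2 scale, and *Slc22a27* and *Slc22a30* had larger negative values (-4.89 and -4.77). With the proportion of multiply aligned reads as a covariate *Slc22a30* was at -2.37 and not called. *Slc22a15* alone was higher in that family (log2 fold change 0.96 ± 0.08 SE, edgeR adjusted p = 1.36e-13). Sodium-coupled glucose and monocarboxylate transporters of the Slc5 family (9 of 10 lower, median -2.01), amino acid transporters of the Slc6 family (12 of 15, median -1.69) and monocarboxylate transporters of the Slc16 family (11 of 13, median -1.27) were mostly lower too, as were the sulfate and phosphate transporters of Slc13 and Slc34 (5 of 7, median -2.28) and the anion exchangers of Slc26 (6 of 7, median -1.43). *Slc5a12*, a lactate transporter, ranged from 358 to 1157 CPM (median 595) in UNT mice and from 57.6 to 226 CPM (median 109) in PBS mice (log2 fold change -2.39 ± 0.22 SE, edgeR adjusted p = 2.29e-12). *Slc6a19*, the neutral amino acid transporter of the brush border, ranged from 167 to 590.5 CPM (median 258) in UNT mice and from 21.4 to 109 CPM (median 47.1) in PBS mice (log2 fold change -2.59 ± 0.25 SE, edgeR adjusted p = 1.45e-11).

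Within several carrier families, members went in opposite directions. In the Slc7 family 8 of 14 were higher and 6 lower. *Slc7a5*, the large neutral amino acid transporter of growing cells, ranged from 3.18 to 6.57 CPM (median 5.07) in UNT mice and from 24.6 to 41.6 CPM (median 28.4) in PBS mice (log2 fold change 2.59 ± 0.13 SE, edgeR adjusted p = 7.55e-20), and *Slc7a1*, which imports arginine, rose by 2.45. *Slc7a11*, which exchanges cystine for glutamate, rose from low levels (1.87). The brush border members *Slc7a9* and *Slc7a13*, a cystine and a glutamate transporter, fell instead by 1.85 and 3.74 on the log2 scale, without overlap. Phosphate transporters split likewise. *Slc34a3* fell with *Slc34a1* (log2 fold change -3.21), whereas *Slc34a2*, the type known from lung and intestine, ranged from 3.35 to 8.1 CPM (median 5.89) in UNT mice and from 24.4 to 49.4 CPM (median 38.6) in PBS mice (log2 fold change 2.71 ± 0.16 SE, edgeR adjusted p = 9.02e-18). Among hexose transporters *Slc2a5*, for fructose, fell (-2.12) and *Slc2a6* rose (3.79). *Slc16a4* fell and *Slc16a3*, which exports lactate, rose (-3.70 and 2.52). *Slc39a5* fell and *Slc39a4*, both zinc importers, rose (-2.19 and 3.29). Of 42 mitochondrial carriers 36 were lower with a median of -0.73, but *Slc25a24*, the calcium-regulated ATP-magnesium carrier, ranged from 9.31 to 12.9 CPM (median 10.2) in UNT mice and from 50.1 to 81.5 CPM (median 66.5) in PBS mice (log2 fold change 2.67 ± 0.08 SE, edgeR adjusted p = 3.48e-25).

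**Figure D4:**
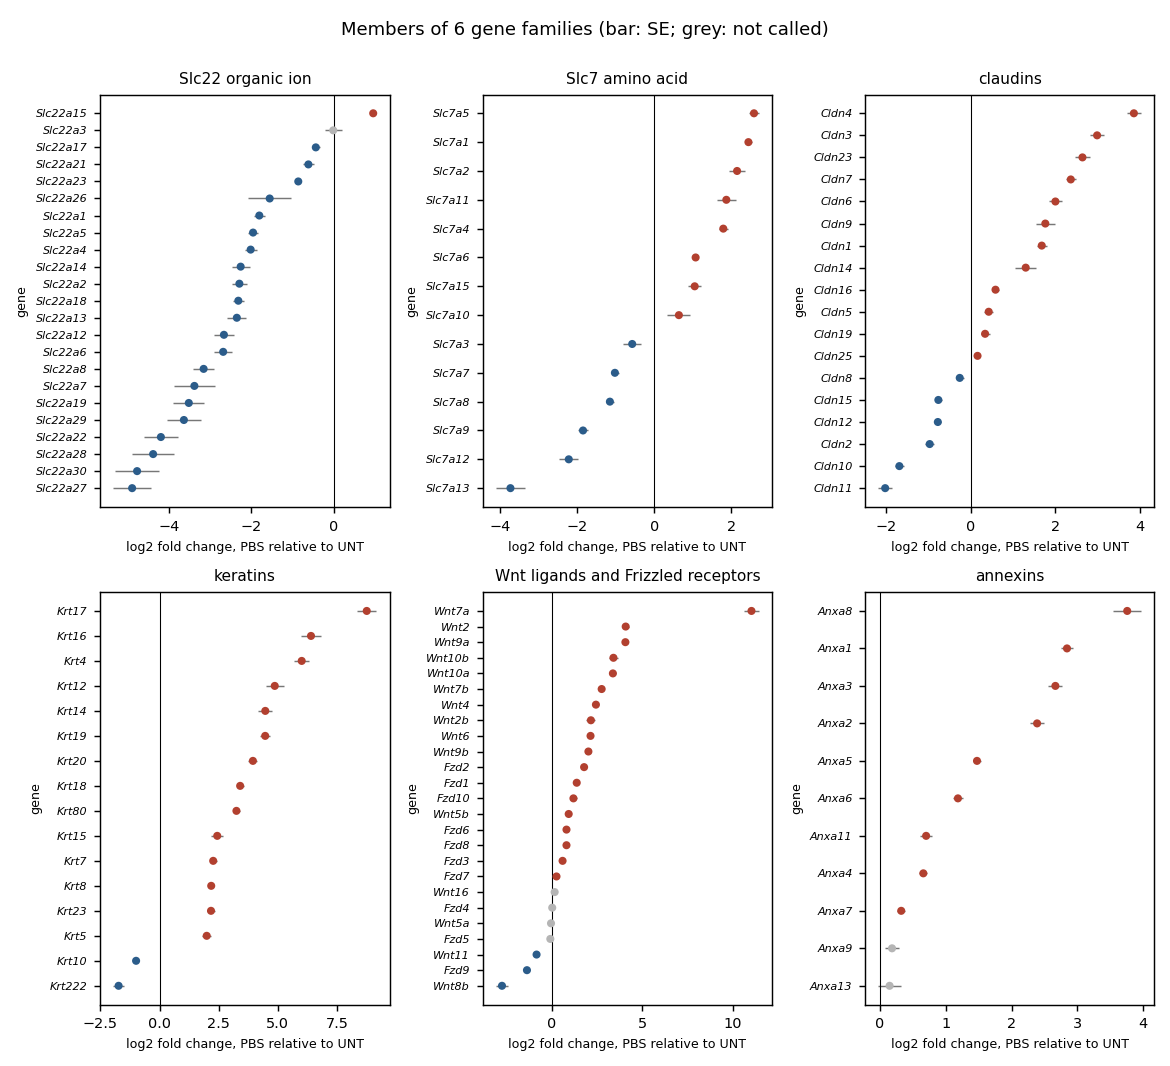
Log2 fold changes of PBS relative to UNT for the tested members of 6 gene families. Points are genes with bars of 1 SE, red for called higher, blue for called lower and grey for not called. The Slc22 family lies almost wholly to the left of 0 and keratins and annexins mostly to the right, while Slc7 transporters and claudins divide.

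Pumps and channels moved in both directions. *Fxyd2*, a regulator of the sodium pump, ranged from 1236 to 1728 CPM (median 1542) in UNT mice and from 336 to 645 CPM (median 463) in PBS mice (log2 fold change -1.64 ± 0.10 SE, edgeR adjusted p = 1.3e-16), while *Fxyd6* of the same family rose by 2.40 on the log2 scale. Of 23 vacuolar proton pump subunits 15 were lower and 2 higher. Of 44 ABC transporters 29 were lower, with *Abcc6*, an ATP release pump, at -2.43. Potassium channels were mixed, with 24 of 64 higher and 29 lower, and their median changed from -0.12 to 0.18 with library size alone. *Kcnt1*, a sodium-activated channel, fell the furthest (log2 fold change -5.05 ± 0.36 SE, edgeR adjusted p = 4.21e-15). *Aqp1* of the proximal tubule and *Aqp11* of the endoplasmic reticulum fell (-1.07 and -2.15).

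**Figure D5:**
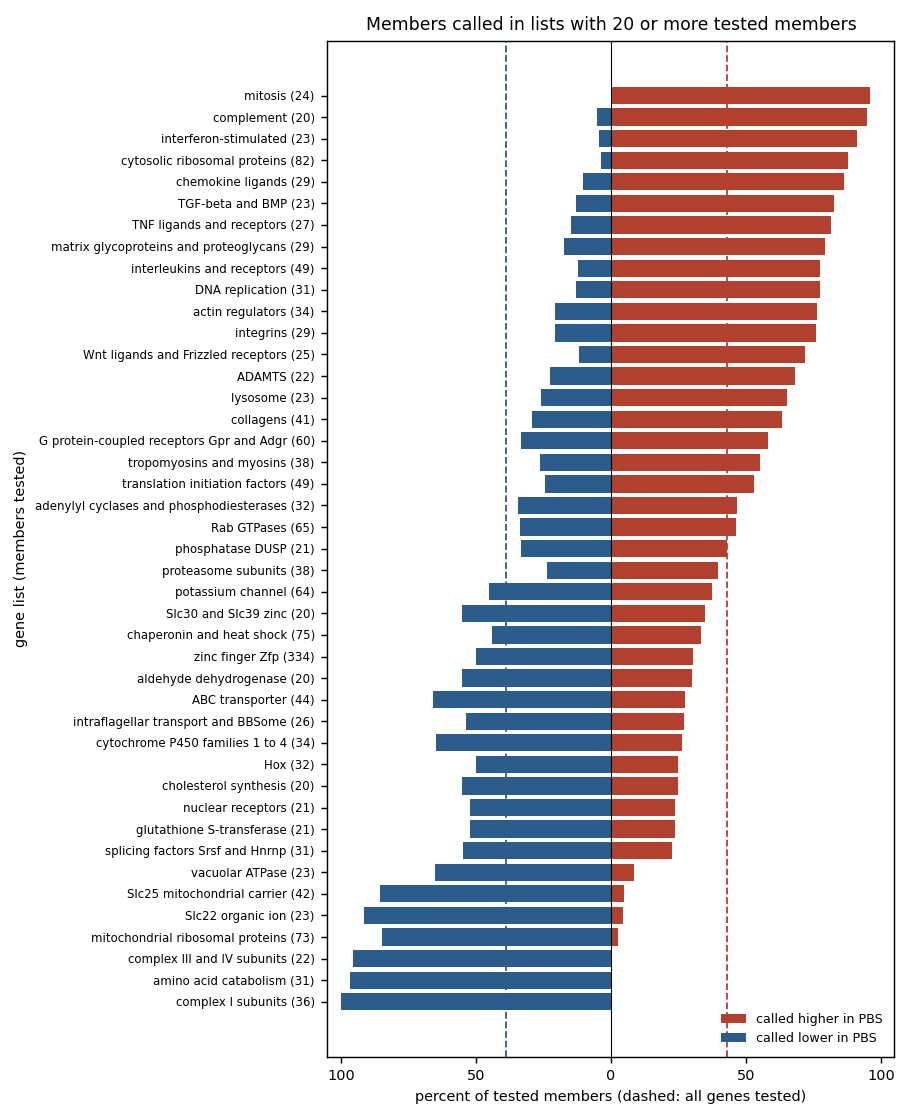
Share of tested members called higher (right) and lower (left) in PBS mice for lists with 20 or more tested members. Dashed lines give the shares among all 15644 genes, 43.1% higher and 39% lower. Respiratory complex, amino acid catabolism and Slc22 lists reach far to the left, while chemokines, complement, mitosis and cytosolic ribosomal proteins reach far to the right.

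Energy metabolism fell almost without exception. All 18 genes of mitochondrial fatty acid oxidation were lower (median -1.10), as were all 17 of peroxisomal oxidation (-1.54), all 17 of the tricarboxylic acid cycle (-1.23) and all 36 subunits of complex I (-0.97), against 39% lower among all genes. Of 22 subunits of complexes III and IV 21 were lower, and of 17 ATP synthase subunits 16. *Acadm*, the medium-chain acyl-CoA dehydrogenase, ranged from 605 to 1077 CPM (median 709) in UNT mice and from 126 to 267 CPM (median 179.9) in PBS mice (log2 fold change -2.04 ± 0.12 SE, edgeR adjusted p = 4.39e-17). *Hadh*, which acts later in the same spiral, ranged from 538 to 699 CPM (median 604) in UNT mice and from 134 to 246 CPM (median 205) in PBS mice (log2 fold change -1.64 ± 0.09 SE, edgeR adjusted p = 3.17e-18). *Hao2*, a peroxisomal hydroxyacid oxidase, fell by 2.84 on the log2 scale, *Dld*, a subunit shared by the mitochondrial dehydrogenases, by 1.59, *Cox7b*, of complex IV, by 1.62 and *Ndufa5*, of complex I, by 1.40. For each of these the groups did not overlap. The oxidation and respiratory chain medians kept their sign with library size alone, at -0.80 for fatty acid oxidation and -0.68 for complex I. The list of mitochondrially encoded genes matched no row by symbol, so the mitochondrial genome's own transcripts were not analysed as a list. Whether the rows without a gene symbol, which were part of the fit, hold such transcripts was not tested.

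Glucose production and amino acid breakdown, both proximal tubule functions, were lower too. All 9 genes of gluconeogenesis and fructose use were lower without overlap, with a median of -2.29, and held 1.56% of the reads in genes of UNT mice and 0.329% in PBS mice on average. *Pck1*, the enzyme that commits carbon to glucose, ranged from 2689.8 to 7804 CPM (median 5164) in UNT mice and from 118 to 1616 CPM (median 507) in PBS mice (log2 fold change -3.21 ± 0.33 SE, edgeR adjusted p = 5.54e-11). *G6pc*, the last step, ranged from 502 to 1774 CPM (median 1135) in UNT mice and from 22.9 to 273 CPM (median 78.3) in PBS mice (log2 fold change -3.28 ± 0.34 SE, edgeR adjusted p = 5.29e-11). PBS mice spread widely in both genes. *Fbp1* fell by 2.39 and *Khk*, which starts fructose use, by 2.51 on the log2 scale. Of 31 genes of amino acid catabolism 30 were lower (median -1.91), led by *Hpd* of tyrosine breakdown, with levels from 57.1 to 457 CPM (median 165) in UNT mice and from 0.282 to 11.4 CPM (median 1.96) in PBS mice (log2 fold change -5.80 ± 0.54 SE, edgeR adjusted p = 4.19e-12). Glycolysis had 6 of 16 higher, 7 lower and 3 not called, with a median of 0.02 that was -0.44 with the proportion of reads assigned to no gene and -0.42 with that of multiply aligned reads as a covariate. *Hk2*, the inducible hexokinase, was higher with overlap (log2 fold change 1.36 ± 0.24 SE, edgeR adjusted p = 3.97e-06) and *Aldoc* lower (log2 fold change -0.85 ± 0.12 SE, edgeR adjusted p = 8.42e-08).

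Families of drug and lipid metabolism had more members lower than higher. UDP-glucuronosyltransferases gave 11 of 14 lower and 0 higher, and *Ugt3a2* ranged from 879 to 1693 CPM (median 1158) in UNT mice and from 49.6 to 348 CPM (median 162) in PBS mice (log2 fold change -2.87 ± 0.24 SE, edgeR adjusted p = 4.24e-13). Of 34 cytochrome P450 genes of families 1 to 4, 22 were lower and 9 higher, among which *Cyp4f39* rose (log2 fold change 3.97 ± 0.26 SE, edgeR adjusted p = 2.58e-16). Of 21 glutathione transferases 11 were lower and 5 higher, with a median of -0.24 that was 0.06 with library size alone. *Gsta2* fell by 2.07 on the log2 scale and *Gstm2* rose by 1.11, a value of 0.40 and not called with the proportion of multiply aligned reads as a covariate. Of 20 aldehyde dehydrogenases 11 were lower and 6 higher. *Aldh8a1* fell (log2 fold change -2.53 ± 0.19 SE, edgeR adjusted p = 1.37e-14), while *Aldh1a2*, which makes retinoic acid, ranged from 4.72 to 7.7 CPM (median 6.31) in UNT mice and from 59.1 to 106 CPM (median 80.7) in PBS mice (log2 fold change 3.71 ± 0.13 SE, edgeR adjusted p = 6.1e-24). Cholesterol synthesis was mixed, with 11 of 20 lower and 5 higher. The regulators of this metabolism fell with it, 12 of 15 being lower. *Ppargc1a*, the coactivator that drives mitochondrial genes, ranged from 109 to 211 CPM (median 148) in UNT mice and from 22.8 to 72.4 CPM (median 47.6) in PBS mice (log2 fold change -1.61 ± 0.14 SE, edgeR adjusted p = 5.5e-13), *Esrrb* fell by 1.88 and *Tfam*, which maintains mitochondrial DNA, by 0.85 on the log2 scale.

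All 11 genes of the tubular injury list were higher without overlap, with a median of 3.91, and held 0.207% of the reads in genes of UNT mice and 1.90% in PBS mice. *Havcr1*, the injury molecule KIM-1, ranged from 0.182 to 0.429 CPM (median 0.302) in UNT mice and from 112 to 273 CPM (median 187) in PBS mice (log2 fold change 9.30 ± 0.29 SE, edgeR adjusted p = 5.35e-25). *Clu*, a secreted chaperone, ranged from 266 to 474 CPM (median 336) in UNT mice and from 1958 to 5604 CPM (median 2962) in PBS mice (log2 fold change 3.31 ± 0.20 SE, edgeR adjusted p = 2.32e-17). *Sox9*, a transcription factor of repairing tubule cells, ranged from 0.413 to 2.07 CPM (median 0.819) in UNT mice and from 9.11 to 25.6 CPM (median 15) in PBS mice (log2 fold change 3.90 ± 0.22 SE, edgeR adjusted p = 3.26e-18). The spread of the list's score among PBS mice, 3.79 to 4.49 above the UNT mean, was narrow beside that of the proximal tubule score, which lay 1.88 to 3.72 below it. *Krt20* and the fibrinogen genes *Fga* and *Fgb* rose by 3.95, 2.28 and 3.91. *Spp1*, which encodes osteopontin, took 0.816% to 1.66% of the reads of a PBS library and 0.117% to 0.244% of a UNT library.

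Developmental and ciliary lists gave different pictures. Of 17 genes in which mutations cause cystic or ciliary kidney disease, 6 were higher, 6 lower and 5 not called, so that 70.6% were called beside 82.1% of all genes. *Bicc1*, an RNA-binding protein, rose the most (log2 fold change 1.70 ± 0.12 SE, edgeR adjusted p = 1.96e-15) and *Pkhd1*, whose promoter drives Cre in this model, had a log2 fold change of 0.69, or 0.51 and not called with the proportion of multiply aligned reads as a covariate. Intraflagellar transport and BBSome genes gave 14 of 26 lower and 7 higher, all by less than 1, from -0.85 for *Bbs7* to 0.86 for *Ift43*, with a median of -0.23 that was 0.07 with library size alone. Hox genes, which keep positional identity, gave 16 of 32 lower and 8 higher, with a median of -0.17 that was 0.13 with library size alone. *Hoxb9* was higher without overlap (log2 fold change 1.29 ± 0.08 SE, edgeR adjusted p = 9.92e-17). Of 16 kidney lineage transcription factors 10 were lower and 4 higher, with a median of -0.79 and scores without overlap between the groups, and *Cited1*, a marker of nephron progenitors, fell by 2.92 on the log2 scale.

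Most immune genes were higher. All 12 macrophage markers were higher without overlap, with a median of 4.43, and held 0.0130% of reads in genes in UNT mice and 0.231% in PBS mice. *Lyz2*, lysozyme of myeloid cells, ranged from 10.7 to 20 CPM (median 13.7) in UNT mice and from 295 to 1208 CPM (median 698) in PBS mice (log2 fold change 5.52 ± 0.20 SE, edgeR adjusted p = 1.46e-23). *Emr1*, which encodes the macrophage antigen F4/80, ranged from 2.74 to 6.34 CPM (median 3.74) in UNT mice and from 46.3 to 107 CPM (median 88.9) in PBS mice (log2 fold change 4.42 ± 0.14 SE, edgeR adjusted p = 5.7e-25), and *Mrc1*, the mannose receptor, rose by 3.50. T and NK cell markers followed at low levels, with 13 of 14 higher and a median of 2.54. *Cd4* ranged from 0.418 to 1.77 CPM (median 1.21) in UNT mice and from 5.46 to 14.7 CPM (median 8.95) in PBS mice (log2 fold change 3.09 ± 0.22 SE, edgeR adjusted p = 2.51e-15), whereas *Cd8a* ranged from 1.52 to 4.77 CPM (median 2.59) in UNT mice and from 1.38 to 4.45 CPM (median 2.47) in PBS mice and was not called (-0.07). *Cd8b1*, which encodes the other CD8 chain, was among the 13 called higher, with 97 reads summed over the UNT mice and 683 over the PBS mice. Dendritic cell markers (7 of 8 higher, median 2.19) and neutrophil markers (6 of 6, median 2.67) were also up, and *S100a8* and *S100a9* of neutrophils overlapped between groups. B and plasma cell markers were divided, 2 higher, 2 lower and 3 not called, with a median of -0.05 that was 0.24 with library size alone. In library sets 1, 2 and 3 alone this median was 0.23, -0.80 and 0.98. PBS mouse 9 had the highest macrophage and T and NK scores. The part of these cells in the immune gene families below was not tested.

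Antigen presentation and complement rose as families. All 8 MHC class II genes were higher without overlap (median 3.35). *H2-Aa* ranged from 30.1 to 97.9 CPM (median 44.1) in UNT mice and from 252 to 919 CPM (median 437) in PBS mice (log2 fold change 3.33 ± 0.22 SE, edgeR adjusted p = 2.91e-16), and *H2-DMb2*, which edits the peptide cargo, rose by 4.72. All 12 genes of the class I pathway were higher, with smaller changes (median 1.48), such as 1.49 for *H2-K1* and 1.08 for *B2m*, the shared light chain. Of 20 complement genes 19 were higher and 17 of them by more than 1 (median 3.55). *C3*, the hub of the cascade, ranged from 12.3 to 49.4 CPM (median 22.1) in UNT mice and from 654 to 1730.2 CPM (median 1407) in PBS mice (log2 fold change 5.59 ± 0.24 SE, edgeR adjusted p = 2.91e-21). *C4b* rose by 5.24 and *C1qa*, a macrophage product, by 4.50. *Cfb*, the protease of the alternative pathway, was the one member called lower, with overlap (-0.28), and its log2 fold change was 0.02 with library size alone, and it was not called with the proportion of multiply aligned reads as a covariate (-0.42). Of 23 interferon-stimulated genes 21 were higher (median 1.20), among them *Oas1a* (2.68), and *Rsad2* was lower with overlap (log2 fold change -0.58 ± 0.09 SE, edgeR adjusted p = 3.36e-07), but at -0.19 and not called with the proportion of multiply aligned reads as a covariate.

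Of 29 chemokine ligands 25 were higher, all by more than 1, with a median of 3.42. *Cxcl5*, a neutrophil attractant, had 9 reads summed over the UNT mice, in 5 of 12 mice, and 2451 over the PBS mice. *Ccl2*, the monocyte attractant, ranged from 0.107 to 0.431 CPM (median 0.23) in UNT mice and from 5.03 to 16 CPM (median 11.9) in PBS mice (log2 fold change 5.41 ± 0.24 SE, edgeR adjusted p = 4.39e-21). *Cxcl12*, which stromal and endothelial cells make, was lower instead (log2 fold change -1.28 ± 0.10 SE, edgeR adjusted p = 6.61e-14), while its receptors *Cxcr4* and *Ackr3* were higher (1.43 and 0.77), *Ackr3* being at 0.12 and not called with the proportion of multiply aligned reads as a covariate. All 14 chemokine receptors were higher (median 2.84), with 5.39 for *Ccr1* and 3.33 for *Ccr2*, the receptor of *Ccl2*. Interleukins and their receptors gave 38 of 49 higher. *Il1f6*, an epithelial IL-36 cytokine, had 4 reads summed over the UNT mice, in 4 of 12 mice, and 1509 over the PBS mice, and *Il1rn*, the IL-1 receptor antagonist, ranged from 0.0908 to 0.387 CPM (median 0.213) in UNT mice and from 6.36 to 17.4 CPM (median 13.4) in PBS mice (log2 fold change 5.92 ± 0.22 SE, edgeR adjusted p = 3.84e-23). *Il15*, a cytokine that sustains NK and memory T cells, fell without overlap (log2 fold change -1.93 ± 0.11 SE, edgeR adjusted p = 1.01e-17). Of 27 TNF family genes 22 were higher, led by *Tnfsf8* (6.97), and of 12 Toll-like receptors 11, led by *Tlr8* (5.31).

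Matrix genes rose, with exceptions inside each family. Of 41 collagens 26 were higher and 12 lower. *Col1a1*, of fibrillar collagen, ranged from 55.8 to 229 CPM (median 95.9) in UNT mice and from 667 to 1426 CPM (median 1079.5) in PBS mice (log2 fold change 3.32 ± 0.20 SE, edgeR adjusted p = 2.15e-17). *Col12a1*, which decorates fibrils, ranged from 17.3 to 36.9 CPM (median 28.3) in UNT mice and from 449 to 1453 CPM (median 1305) in PBS mice (log2 fold change 5.36 ± 0.18 SE, edgeR adjusted p = 4.55e-24). *Col27a1*, a fibrillar collagen known from cartilage, was the opposite, with levels from 243 to 478 CPM (median 314) in UNT mice and from 20.4 to 49.8 CPM (median 26.9) in PBS mice (log2 fold change -3.50 ± 0.20 SE, edgeR adjusted p = 1.29e-17). Basement membrane laminins gave 9 of 11 higher, with 1.63 for *Lamc1*, and *Lama1* not called. Matrix glycoproteins and proteoglycans gave 23 of 29 higher (median 1.89), with *Mfap5* of elastic fibres at 4.36 and *Sparc* at 1.94. Enzymes that remodel matrix were higher too. Of 18 matrix metalloproteases 16 were higher (median 2.78), and *Mmp7*, made by injured epithelium, had 9 reads summed over the UNT mice and 6519 over the PBS mice. Of 9 tissue inhibitors and lysyl oxidases 6 were higher, 1 lower and 2 not called. *Timp1*, an inhibitor of the metalloproteases, ranged from 0.113 to 0.631 CPM (median 0.435) in UNT mice and from 40 to 103 CPM (median 61.5) in PBS mice (log2 fold change 7.36 ± 0.25 SE, edgeR adjusted p = 3.68e-24), and *Timp2* rose by 2.38. *Timp3*, the one lower, ranged from 1632 to 2179.6 CPM (median 1999.6) in UNT mice and from 1030.0 to 1517 CPM (median 1322) in PBS mice without overlap (log2 fold change -0.58 ± 0.07 SE, edgeR adjusted p = 8.22e-10). *Mmp13* was lower with overlap, its log2 fold change of -0.81 turning to 0.40 when the proportion of multiply aligned reads was a covariate. *Loxl1*, which crosslinks elastin, rose by 2.26.

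AP-1 sites were looked for in the promoters of genes that rose. The list of immediate early genes, which holds AP-1 subunits, had 16 of 17 higher, and a link between these genes and the sites was not tested. The motif TGANTCA, on both strands, lay in 5.41% of the 11545 matched promoters, in 8.78% of those of genes called higher by more than 1, in 6.12% of those lower by more than 1 and in 4.12% of those not called. It lay in 7.93% of all 27025 RefSeq promoters, including those of genes not tested. Capitals mark it in the windows below, which lie in promoters of a pair of metalloproteases, an S100 protein and an annexin with large increases. The windows were chosen for holding the motif and do not show binding. The share of promoters with a match was not tallied for the lists of metalloproteases, S100 proteins and annexins. Among lists that were higher, the motif lay in 4 of 19 chemokine ligand promoters, 1 of 8 of tubular injury, 1 of 11 of complement, 0 of 9 of keratins, 0 of 20 of mitosis and 2 of 61 of cytosolic ribosomal proteins. *Mmp3*, stromelysin, ranged from 0 to 0.404 CPM (median 0.195) in UNT mice and from 3.52 to 12.4 CPM (median 7.33) in PBS mice. *S100a11* ranged from 51.9 to 83.4 CPM (median 68.7) in UNT mice and from 319 to 709 CPM (median 452) in PBS mice. *Anxa2*, which organizes membrane and actin, ranged from 96.6 to 135 CPM (median 119) in UNT mice and from 439.7 to 816 CPM (median 557) in PBS mice, and the groups did not overlap for any of these genes.
Mmp7, chr9:7692016-7692045, + strand: aagtgtgcaaaTGAGTCAcctatttccaca
Mmp3, chr9:7445765-7445794, + strand: ggaagcaattaTGAGTCAgttttcgggtga
S100a11, chr3:93520447-93520476, + strand: cgggcacagccTGAGTCAggctgaggggcg
Anxa2, chr9:69453577-69453606, + strand: tccaagttggaTGAGTCAcccagcagggtg
Promoters of changed genes also differed in make-up. TATAAA was in 11.6% of promoters of genes higher by more than 1 and 10.3% of those lower by more than 1, against 6.86% for genes not called, and the median number of CpG dinucleotides was 13 and 14 against 21. GGGCGG, the GC box, was in 54.2% and 48.1% against 62.6%. The part of this make-up in the shares of GTTAAT and TGANTCA was not tested. The shares for GGAATG (TEAD, 14% and 14%), TTCNNNGAA (STAT, 7.88% and 6.19%), CCAAT (NF-Y, 33.5% and 39.2%) and TTTGAA (CHR, 13% and 14.1%) lay beside 12.5%, 7.08%, 38.0% and 12.1% of all matched promoters. In the mitosis list CCAAT lay in 17 and TTTGAA in 14 of 20 promoters. In the other higher lists they lay in 1 and 3 of 11 of complement, 4 and 5 of 19 of chemokine ligands and 2 and 1 of 8 of tubular injury. For keratins these counts were 1 and 1 of 9, and for cytosolic ribosomal proteins 19 and 4 of 61. Matches of different motifs were counted separately where they overlapped.

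Keratins, the intermediate filaments of epithelia, were among the genes that rose the most. Of 16 keratins 14 were higher, all by more than 1 (median 3.33). *Krt18*, of simple epithelium, ranged from 32 to 50.9 CPM (median 40.1) in UNT mice and from 259 to 648 CPM (median 379) in PBS mice (log2 fold change 3.41 ± 0.15 SE, edgeR adjusted p = 7.11e-21). *Krt19*, of ducts, ranged from 8.67 to 18.2 CPM (median 13.4) in UNT mice and from 154 to 476 CPM (median 251) in PBS mice (log2 fold change 4.47 ± 0.20 SE, edgeR adjusted p = 1.12e-20). *Krt17*, a keratin of stressed and basal epithelium, had 12 reads summed over the UNT mice, in 6 of 12 mice, and 5461 over the PBS mice. Claudins, which set the permeability of tight junctions, divided with 12 of 18 higher and 6 lower. *Cldn4* ranged from 17.3 to 30.8 CPM (median 23.5) in UNT mice and from 221 to 513 CPM (median 305) in PBS mice (log2 fold change 3.86 ± 0.17 SE, edgeR adjusted p = 9.66e-21), and *Cldn11* fell by 2.02 on the log2 scale. Among cadherins *Cdh1*, of adherens junctions, ranged from 226 to 284 CPM (median 249.7) in UNT mice and from 513 to 813 CPM (median 589.8) in PBS mice (log2 fold change 1.32 ± 0.09 SE, edgeR adjusted p = 4.23e-15), *Cdh3* rose by 3.82, and *Cdh19*, of Schwann cells, was the one member called lower (-0.94, with overlap), which turned to 0.19 when the proportion of multiply aligned reads was a covariate.

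Most members of the cytoskeletal and calcium-binding families were higher. Of 11 annexins 9 were higher without overlap, and *Anxa1* ranged from 22.5 to 36 CPM (median 28.4) in UNT mice and from 158 to 263 CPM (median 196) in PBS mice (log2 fold change 2.84 ± 0.10 SE, edgeR adjusted p = 7.34e-24). Of 12 S100 proteins 9 were higher. *S100a14*, an epithelial member, ranged from 1.12 to 2.93 CPM (median 1.82) in UNT mice and from 46.8 to 126 CPM (median 68.3) in PBS mice (log2 fold change 5.14 ± 0.23 SE, edgeR adjusted p = 6.42e-21), and *S100g*, the vitamin D-dependent calbindin of the distal nephron, fell (log2 fold change -2.11 ± 0.16 SE, edgeR adjusted p = 1.71e-14). Tubulins gave 13 of 19 higher, with *Tubb2b* at 2.79 and *Tubb3*, the neuronal form, at 5.13 from near 0. Actin regulators gave 26 of 34 higher (median 0.99) and *Flnc*, filamin C, rose by 2.76. *Vim*, the intermediate filament of mesenchymal cells, ranged from 69.9 to 107 CPM (median 87.6) in UNT mice and from 352 to 489 CPM (median 409) in PBS mice (log2 fold change 2.24 ± 0.08 SE, edgeR adjusted p = 3.02e-23). Integrin genes, in a list that also holds genes of integrin-binding proteins, gave 22 of 29 higher, with *Itgax* at 3.73.

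Most cell cycle genes were higher, with overlap for the mitosis list. Of 24 mitosis genes 23 were called higher with a median of 0.60, and in 0 of them were PBS and UNT mice apart. *Mki67*, the proliferation antigen, ranged from 17.2 to 91.3 CPM (median 39) in UNT mice and from 44.4 to 84.3 CPM (median 65.5) in PBS mice (log2 fold change 0.60 ± 0.17 SE, edgeR adjusted p = 0.00198), and UNT mice themselves spread widely. It was not called with the proportion of multiply aligned reads as a covariate (0.67). DNA replication genes gave 24 of 31 higher (median 0.69), 14 of them without overlap, with *Ccne1*, cyclin E, at 1.29 without overlap. Cycle inhibitors did not all go one way. *Cdkn1c*, which encodes the inhibitor p57 and is listed here with podocyte markers, fell (log2 fold change -1.12 ± 0.09 SE, edgeR adjusted p = 2.97e-13). *Cdkn2a*, which encodes p16 and p19, had 9 reads summed over the UNT mice, in 6 of 12 mice, and 1571 over the PBS mice, where it ranged from 1.49 to 7.41 CPM. Of 15 p53 targets and inhibitors 10 were higher and 2 lower, with *Eda2r* and *Gdf15* at 3.84 and 3.30. Of 17 immediate early genes 16 were higher (median 2.30). *Egr2* ranged from 0.19 to 0.673 CPM (median 0.415) in UNT mice and from 16.8 to 31.3 CPM (median 20.3) in PBS mice (log2 fold change 5.69 ± 0.17 SE, edgeR adjusted p = 5.35e-25), and *Myc* ranged from 7.49 to 13.7 CPM (median 10.2) in UNT mice and from 40.1 to 66.7 CPM (median 52.2) in PBS mice (log2 fold change 2.30 ± 0.10 SE, edgeR adjusted p = 1.71e-21). Histone genes gave 11 of 14 lower and 0 higher (median -1.04), with *Hist1h2bc* at -1.49. The libraries hold polyadenylated RNA, and the main histone mRNAs of dividing cells lack a poly(A) tail.

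Stress pathways differed from one another. Of 18 cell death genes 15 were higher, with *Ripk3*, a kinase of necroptosis, at 2.79 and *Nlrp3*, of the inflammasome, at 2.96. Of 23 lysosomal genes 15 were higher, led by the protease *Ctss* of antigen-presenting cells (4.79), while *Lipa*, the acid lipase, was lower (log2 fold change -0.70 ± 0.08 SE, edgeR adjusted p = 2.7e-10). The unfolded protein and integrated stress response gave 8 of 17 higher, 2 lower and 7 not called. *Asns*, which makes asparagine, rose (log2 fold change 2.28 ± 0.12 SE, edgeR adjusted p = 2.65e-19), and *Herpud1*, of the endoplasmic reticulum, fell (log2 fold change -1.36 ± 0.15 SE, edgeR adjusted p = 4.47e-10). Nrf2 antioxidant genes gave 7 of 12 lower and 4 higher.

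Growth and patterning signals were mostly higher. Of 25 Wnt ligands and Frizzled receptors 18 were higher. *Wnt7a*, which epithelia secrete, went from near 0 to clear expression, with 7 reads summed over the UNT mice, in 5 of 12 mice, and 17209 over the PBS mice, where it ranged from 15.5 to 76.3 CPM (edgeR adjusted p = 3.82e-23). *Wnt2* rose by 4.08 and *Wnt8b* fell by 2.75 on the log2 scale. Among targets and modulators 12 of 18 were higher, and *Nkd2*, an inhibitor of the pathway, ranged from 1.09 to 2.55 CPM (median 1.98) in UNT mice and from 45.5 to 84.8 CPM (median 55.4) in PBS mice (log2 fold change 4.90 ± 0.16 SE, edgeR adjusted p = 1.13e-24). Of 23 TGF-beta and BMP genes 19 were higher. *Tgfb1* ranged from 10.1 to 19 CPM (median 14.4) in UNT mice and from 51.9 to 82.1 CPM (median 69) in PBS mice (log2 fold change 2.19 ± 0.10 SE, edgeR adjusted p = 3.53e-20), *Inhbb*, an activin subunit, rose by 4.48 and *Grem1*, a BMP antagonist, by 4.91. Targets and factors of YAP and TEAD gave 12 of 14 higher, where the targets *Ankrd1*, *Cyr61* and *Ctgf* rose by 5.47, 2.70 and 2.04 and *Lats1*, an upstream kinase, was not called.

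Growth factor families held members in both directions. Ligands of the EGF receptor other than *Egf* were higher, with *Hbegf* ranging from 12.8 to 22.3 CPM (median 18) in UNT mice and from 38.6 to 62.5 CPM (median 45.4) in PBS mice (log2 fold change 1.40 ± 0.10 SE, edgeR adjusted p = 1.11e-15) and *Areg* at 4.50 from near 0, against the fall of *Egf* given above. *Egfr* itself was slightly higher with overlap (0.31), -0.06 in library set 3, and 0.15 and not called with the proportion of multiply aligned reads as a covariate. Of 16 FGF ligands and receptors 11 were higher and 5 lower, and *Fgf18* rose without overlap (log2 fold change 3.68 ± 0.19 SE, edgeR adjusted p = 3.95e-19). In the insulin-like growth factor axis *Igfbp2* ranged from 3.49 to 16.2 CPM (median 7.57) in UNT mice and from 126 to 226 CPM (median 172) in PBS mice (log2 fold change 4.32 ± 0.19 SE, edgeR adjusted p = 6.62e-21), whereas *Igfbp5* fell (-1.20). Of Hedgehog genes 8 of 11 were higher (median 0.70) and of Notch genes 10 of 14 (median 0.43). *Gli2*, a Hedgehog effector, rose by 1.61 and *Heyl*, a Notch target, by 1.76. Phosphatases of the DUSP family gave 9 of 21 higher and 7 lower, and *Dusp15* fell (log2 fold change -4.41 ± 0.23 SE, edgeR adjusted p = 6.67e-19).

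In the list of renin-angiotensin, klotho and vitamin D genes 6 of 10 were lower, 0 higher and 4 not called, so that 60% were called against 82.1% of all genes tested. *Kl*, which encodes the FGF23 coreceptor klotho, ranged from 785 to 1114 CPM (median 1021) in UNT mice and from 117 to 299 CPM (median 209.5) in PBS mice (log2 fold change -2.35 ± 0.13 SE, edgeR adjusted p = 2.19e-18). *Vdr*, the vitamin D receptor, ranged from 217 to 291 CPM (median 251) in UNT mice and from 64.9 to 133 CPM (median 102) in PBS mice (log2 fold change -1.35 ± 0.09 SE, edgeR adjusted p = 4.83e-16). Hypoxia genes did not move as a block. *Vegfa* ranged from 356 to 427 CPM (median 378) in UNT mice and from 55.4 to 115 CPM (median 77.1) in PBS mice (log2 fold change -2.23 ± 0.15 SE, edgeR adjusted p = 6.59e-16), *Egln3*, an oxygen sensor that HIF induces, rose (log2 fold change 2.04 ± 0.12 SE, edgeR adjusted p = 2.63e-17), and *Hif1a* was not called. The cAMP system was divided, with 15 of 32 adenylyl cyclases and phosphodiesterases higher and 11 lower. *Adcy7* rose and *Pde6a* fell (2.80 and -3.52).

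Basic machinery separated by compartment. Of 82 cytosolic ribosomal protein genes 72 were higher, with a median of 0.54, 29 of them without overlap, and together they held 1.72% of the reads in genes of UNT mice and 3.11% in PBS mice. PBS mouse 9 had the highest score of this list, 1.28 above the UNT mean, while the lowest PBS mouse was 0.18 above it. Of 73 mitochondrial ribosomal proteins, by contrast, 62 were lower and 2 higher (median -0.44). *Rps16* and *Mrpl50* had log2 fold changes of 1.0 and -1.28. Proteasome subunits gave 15 of 38 higher, 9 lower and 14 not called, led by the inducible immunoproteasome subunit *Psmb8* (2.42). Splicing factors of the Srsf and Hnrnp families gave 17 of 31 lower, with *Srsf5* ranging from 314 to 422 CPM (median 363) in UNT mice and from 58.2 to 151 CPM (median 135) in PBS mice (log2 fold change -1.61 ± 0.18 SE, edgeR adjusted p = 6.18e-10), and a list median of -0.23 that was 0.06 with library size alone. *Srsf5* was at -0.36 and not called with the proportion of multiply aligned reads as a covariate. Of 65 Rab GTPases 30 were higher and 22 lower, and *Rab31* was without overlap (log2 fold change 2.50 ± 0.08 SE, edgeR adjusted p = 1.13e-24). RNA polymerase II subunits gave 4 of 13 higher, 4 lower and 5 not called.

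The exons of a gene can overlap those of another, and reads of the neighbour may then have been counted or both may have lost reads. In the GENCODE annotation of GRCm38 this applied, on either strand, to *Pkhd1*, *Egf*, *Slc34a1*, *Umod*, *Cd74*, *Spp1*, *Bicc1*, *Cfb*, *Mmp7*, *Timp3*, *Anxa2*, *Cdkn1c*, *Hif1a* and *Psmb8* among the genes named here, whose values are therefore less certain.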

How the data were processed

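Kidney RNA of 34 mice was sequenced from stranded, poly(A)-selected libraries. Per the labels and the study's methods, the authors trimmed reads with Trim Galore, aligned them with STAR to GRCm38/mm10 and counted reads per gene with HTSeq. The deposited values are raw read counts, 1 file per mouse, and the annotation and strand setting were not given in the sources used here. Rows for reads in no gene, ambiguous or not unique were left out of totals and tests.

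Groups came from the labels. Genes were kept with filterByExpr (15644 of 23509), scaled with TMM and fitted in edgeR 4.0.16 (R 4.3.3, quasi-likelihood F test), with 1 coefficient for each of the UNT, PBS and RGLS4326 groups, so that 34 libraries shared the estimate of spread. P-values were adjusted by Benjamini-Hochberg over all genes tested, and a call was an adjusted p under 0.05. Fold changes are log2, with standard errors from the fitted coefficient and its test statistic. The labels name 1 kidney library per mouse and do not say more about how mice were chosen, so p-values measure the spread between these mice. For depth, 20823992 to 54981992 reads fell in genes per PBS or UNT library, and CPM are counts scaled to 1000000 reads after TMM. Summed reads are given for genes near 0 and cover counting error only.

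The members and the 121 gene lists were chosen with earlier results of these data known. Named genes were the 12 genes called highest and the 12 called lowest without overlap and with a mean of at least 5 CPM in the higher group, in each list the 2 largest changes in the main direction and the largest in the other (lists of 15 or fewer tested members in full), the 10 genes with most reads per group and a set of fixed names. Alternatives were DESeq2 size factors, the DESeq2 1.42.0 test, upper quartile factors, library size only, no filter, a mean CPM of at least 1, PBS and UNT libraries alone, the library set as a covariate or each set alone, the replicate number as a block, each mouse left out, and the shares of reads in no gene and not unique as covariates. For list scores, adding 0.1 rather than 1 to the CPM was a further alternative. The library sets were read from the library numbers and are not a stated batch. UNT, PBS and RGLS4326 mice share replicate numbers in the labels. Deviations of same-numbered PBS and UNT mice correlated above 0.1 in 1 of 11 pairs (range -0.262 to 0.307), so no pairing by number was visible. These correlations cannot tell whether same-numbered mice were related or handled together. A few genes are not reported here.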

Additional observations from a re-analysis of the deposited data

How the results depend on the processing

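The counts of called genes kept within 1.5 times their value (12841 genes) under DESeq2 size factors (12816), the DESeq2 test (12854), upper quartile factors (12835), library size only (13069), no low-count filter (14396), a mean CPM of at least 1 (12023), PBS and UNT libraries alone (12639), the library set as a covariate (12892), the proportion of reads assigned to no gene as a covariate (10975), each library set alone (11408, 11389 and 10153) and without PBS mice 2 and 11 (12574), an alternative chosen after seeing the data. With the proportion of multiply aligned reads as a covariate, which differs between the groups without overlap, 7338 genes were called, 4094 higher and 3244 lower. Leaving out each mouse in turn gave 12712 to 12916 called genes, 6548 to 6751 higher, 6024 to 6368 lower and 4982 to 5151 with an absolute log2 fold change above 1. With the replicate block, on the 11 numbers that both groups share, 12513 genes were called (6547 higher and 5966 lower), and the block among the genes named here ended the call of *Star* only (log2 fold change 1.2, adjusted p = 0.15 in edgeR). Among named genes the log2 fold change changed sign for *Aqp2* with the proportion of reads assigned to no gene as a covariate (-0.092), for *Mmp13* (0.40) and *Cdh19* (0.19) with that of multiply aligned reads, for *Cfb* (0.017) and *Lats1* (0.21) with library size only, for *Adipoq* (-0.21) in library set 2 and for *Egfr* (-0.064) in library set 3. Of 120 list medians 13 changed sign with library size only, 3 with DESeq2 size factors, 0 with upper quartile factors, 12 with the proportion of multiply aligned reads and 9 with that of reads assigned to no gene as a covariate, the aquaporin median going from 0.47 to -0.74 and -0.38 with these. More of them moved by over 1 SD of the list's score between UNT mice, 113 with library size only, 74 and 63 with these covariates, 25 with a mean CPM of at least 1 and 61, 71 and 55 in library sets 1, 2 and 3 alone, where 9, 5 and 6 changed sign. Of the 120 differences in list score between the groups, 110 moved by over that SD with library size only and 48 with 0.1 rather than 1 added to the CPM. With the multiply aligned proportion as a covariate 17 named genes were no longer called. The log2 fold change, reported against with this covariate, was as large or larger for *Mki67* (0.60 and 0.67) and *Cfb* (-0.28 and -0.42), and within 1.5 times for *Pkhd1* (0.69 and 0.51) and *Star* (4.6 and 4.01, values that rest mostly on PBS mice 2 and 11, at 301.7 and 450.3 CPM). It was smaller by over 1.5 times for *Pkd2* (-0.78 and -0.39), *Scnn1b* (1.10 and 0.24), *Scnn1g* (0.86 and 0.02), *Aqp2* (1.27 and 0.05), *Adipoq* (0.82 and 0.47), *Slc22a30* (-4.77 and -2.37), *Gstm2* (1.11 and 0.40), *Rsad2* (-0.58 and -0.19), *Ackr3* (0.77 and 0.12), *Egfr* (0.31 and 0.15) and *Srsf5* (-1.61 and -0.36), and it changed sign for *Mmp13* and *Cdh19* as given above. With the proportion assigned to no gene 5 were no longer called, *Aqp2*, *Star* (2.96), *Adipoq* (0.40), *Cdh19* (-0.63) and *Egfr* (0.18). The cause of these changes was not tested. Depth limited the genes near 0, and 7865 of 23509 genes did not pass the low-count filter.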

Other observations

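A few genes dominated the libraries. *Kap*, the androgen-regulated protein of mouse proximal tubules, held 1.15% to 2.03% of the reads of UNT libraries and 0.0202% to 0.251% of PBS libraries. *Gpx3*, the secreted glutathione peroxidase of the same cells, held 1.43% to 1.75% and 0.549% to 0.992%. The groups did not overlap for either gene. A further 10 rows, which carry transcript identifiers without a gene symbol and were left unnamed, together held 8.62% to 11.9% of UNT reads and 0.731% to 3.03% of PBS reads.

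Receptor families outside the kidney's usual repertoire were also measured. Orphan and adhesion G protein-coupled receptors gave 35 of 60 higher, 28 of them by more than 1, and 20 lower, with a median of 0.49. Of 1453 olfactory and vomeronasal receptor genes in the table only 10 passed the low-count filter, 7 of them lower and 2 higher in PBS mice, with a median of -1.33 that was 0.47 with the proportion of multiply aligned reads as a covariate. Zinc finger genes of the Zfp series gave 167 of 334 lower and 101 higher, with a median of -0.20 that was 0.10 with library size alone. Nuclear receptors gave 11 of 21 lower and 5 higher, with a median of -0.21 that was 0.08 with library size alone, and chaperonins and heat shock proteins gave 33 of 75 lower and 25 higher, with a median of -0.13 that was 0.17.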
